A study of Mus musculus with 12 samples.

Results

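Antibodies are built from heavy chains, encoded at the Igh locus on chromosome 12, and light chains, encoded at Igk on chromosome 6 or Igl on chromosome 16. Each locus holds many variable (V) segments and a few joining (J) segments and constant regions, and Igh also holds diversity (D) segments. The Rag recombinase joins the heavy-chain segments in pro-B cells, the precursors from bone marrow that were measured here, and light-chain segments are joined later, in pre-B cells, with kappa usually before lambda. Segments that have not yet been joined are already transcribed as germline RNA, and Pax5, a transcription factor needed for commitment to the B lineage, takes part in drawing the Igh locus together so that distal V segments can be used.

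All transcript clusters on the array were taken for which every gene symbol in the platform annotation is that of an immunoglobulin heavy, kappa or lambda segment or constant region. A transcript cluster is the unit in which the array reports a gene. The rule found 30 of the 23410 clusters that carry a symbol. Of these, 10 were heavy-chain, 17 kappa and 2 lambda clusters. The last matched only by the letters of its name: Ighmbp2 encodes a helicase on chromosome 19 and is no segment. It did not pass in any comparison (adjusted p = 0.793 to 0.945, limma) and is left out of the descriptions below, which cover 29 clusters.

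The 12 arrays formed 3 groups of 4 from mice aged 1 month, housed free of specific pathogens. They were wild type (WT) pro-B cells, cells of Pax5+/- mice, which lack 1 working copy of Pax5, and cells of Cd72+/-;Pax5+/- mice, which also lack 1 copy of Cd72, an inhibitory co-receptor of B cells. The labels name pro-B cells from bone marrow as the tissue of every array and add that the mutant cells are preleukemic. They do not give the kind of allele, the strain or the gate, nor whether separate animals gave the arrays of each group, so p-values measure no more than the spread over the arrays used, possibly a technical spread. The number of arrays limits the precision.

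Markers of pro-B cells were bright on all arrays, and 11 of the 12 on the list were measured. Their mean lay between 11.29 and 12.09 on the log2 scale, against a median of 7.135 over all clusters tested. Pax5 itself read 11.40 to 11.72 in WT, 10.65 to 11.21 in Pax5+/- and 11.11 to 11.31 in Cd72+/-;Pax5+/-, and Cd72 read 8.43 to 9.39, 10.03 to 10.27 and 7.34 to 7.67. Whether their probes lie in the deleted parts is not known. The 4 WT arrays fell into a pair of replicates 1 and 3 and a pair of replicates 2 and 4, and the former had higher stromal and endothelial markers (means of 7.78 and 7.75 against 7.20 and 7.22). The pro-B cell markers of WT were divided too, with means of 12.07 and 12.09 in replicates 1 and 3 against 11.35 and 11.29. In Pax5+/- the pro-B means read 11.85 to 11.98, and in Cd72+/-;Pax5+/- 11.56 to 11.70. Pax5+/- replicates 1 and 3 likewise had higher stromal means than replicates 2 and 4 (7.78 and 7.84 against 7.03 and 7.07). Cd72+/-;Pax5+/- showed no such split (6.72 to 6.90), and its closest pairs, 1 with 2 and 3 with 4, were hardly closer (SD of the differences over all clusters 0.117 and 0.125) than arrays of different pairs (0.128 to 0.183). A fit on the means of the closest pairs, called the pair fit here, has 2 values a group and is given beside the immunoglobulin results that it changes. Of the 11 pro-B markers, Cd93 (by 1.27), Cd24a (by 0.75) and Ebf1 rose and Cd79a and Pax5 fell in Pax5+/- against WT (limma, adjusted p under 0.05). In Cd72+/-;Pax5+/- against WT Ebf1 rose and Dntt fell. None of these calls held in the pair fit. Of all clusters tested, 7.47% and 7.78% passed in these comparisons. Xist stood at 11.75 to 11.9 in every Cd72+/-;Pax5+/- replicate and at 5.00 to 5.52 elsewhere, so genotype and sex cannot be told apart in any comparison with that group.

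The 29 clusters listed 29 symbols, 6 of heavy-chain, 20 of kappa and 3 of lambda genes, and all matched the RefSeq table. Only 15 clusters listed a single symbol. Clusters that list several cannot be ascribed to any of them and are described by number. The annotation does not say whether the probes lie in a variable or a constant part, so a cluster listed as Igha or Ighm is not a measure of the alpha or mu constant region as such. Many clusters also listed the same database transcripts: 17 of the 29 shared at least 1 accession with another. Such clusters may read the same RNA and are not independent. The array does not separate germline from joined transcripts, and in a bulk sample fewer cells with a transcript and less of it per cell cannot be told apart.

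Many heavy-chain and kappa clusters stood higher in the cells with 1 copy of Pax5, and no lambda cluster passed. In Pax5+/- against WT, 15 of 29 clusters rose, 1 fell and 13 did not pass (limma, Benjamini-Hochberg adjusted p under 0.05). Of all clusters tested, 7.47% passed, 4.28% higher and 3.2% lower. The median log2 difference was 0.45 over the 29 clusters and -0.005 over all clusters. For Cd72+/-;Pax5+/- against WT, 9 rose, 1 fell and 19 did not pass, where 7.78% of all clusters passed, 4.12% higher and 3.66% lower. The medians were 0.16 over the 29 clusters and 0.0025 over all. The arrays of Pax5+/- and WT did not overlap in 15 of the 29 clusters, against 10.7% of all clusters. Those of Cd72+/-;Pax5+/- and WT did not overlap in 14, against 14.8% of all. Both comparisons share the WT arrays.

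Most heavy-chain clusters were higher in both mutant groups, and 1 was lower. In Pax5+/- 6 of 10 rose and 1 fell, with a median log2 difference of 0.62. The same counts, 6 and 1, were found in Cd72+/-;Pax5+/-, with a median of 0.705. The median level of the 10 clusters overlapped between the groups, at 7.205, 6.72, 7.275 and 6.655 in WT replicates 1 to 4, 7.05 to 7.20 in Pax5+/- and 7.07 to 7.265 in Cd72+/-;Pax5+/-. The 3 clusters that did not pass in either comparison were 10402864 and 10403069, both listed as Ighm, and 10403009, which lists Ighv3-6 and Igha.

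The largest rises were those of 2 clusters listed as Igha, the constant region of IgA. Cluster 10403063 led in Cd72+/-;Pax5+/-. It read 7.71, 6.82, 7.86 and 6.74 in WT replicates 1 to 4, 8.60, 8.68, 8.68 and 8.86 in Pax5+/-, and 9.14, 9.19, 9.16 and 9.39 in Cd72+/-;Pax5+/-. The groups did not overlap, and WT replicates 2 and 4 were lower than replicates 1 and 3 (6.78 against 7.785 on average). The difference from WT was 1.42 in Pax5+/- (SE 0.214, 2.68-fold, limma adjusted p = 0.000911) and 1.94 in Cd72+/-;Pax5+/- (SE 0.214, 3.83-fold, adjusted p = 7.9e-05). Neither passed in the pair fit (adjusted p = 0.181 and 0.0814). The size depended on WT: without WT replicates 1 and 3 the differences were 1.925 and 2.44, and without WT replicates 2 and 4 they were 0.92 and 1.435.

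Cluster 10403034 led in Pax5+/- and named the same 7 accessions as 10403063. It read 8.03, 6.92, 8.10 and 6.96 in WT, 8.86, 9.01, 8.88 and 9.03 in Pax5+/-, and 9.28, 9.37, 9.34 and 9.43 in Cd72+/-;Pax5+/-. Every mutant array lay above every WT array. Its differences from WT were 1.44 (SE 0.233, adjusted p = 0.00155) and 1.85 (SE 0.233, adjusted p = 0.000229), and in the pair fit neither passed (adjusted p = 0.228 and 0.118). They were 2.005 and 2.415 without WT replicates 1 and 3, and 0.88 and 1.29 without WT replicates 2 and 4.

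Clusters 10403015 and 10403018 each list Ighg3, the constant region of IgG3, with Igha and the variable segments Ighv1-26 and Ighv1-33, and share 9 accessions. Cluster 10403015 read 7.98, 7.63, 8.06 and 7.44 in WT, 9.03, 8.77, 9.01 and 9.08 in Pax5+/-, and 9.30, 9.39, 9.32 and 9.53 in Cd72+/-;Pax5+/-. Its arrays thus lay in the order WT, Pax5+/-, Cd72+/-;Pax5+/- with no overlap. The differences from WT were 1.195 (SE 0.123, 2.29-fold, adjusted p = 4.07e-05) and 1.61 (SE 0.123, 3.05-fold, adjusted p = 3.19e-06). For 10403018 they were 0.975 (adjusted p = 2.99e-05) and 1.27 (adjusted p = 3.09e-06). Both clusters passed in the pair fit too, with adjusted p = 0.0497 and 0.0484 in Pax5+/-, just inside the threshold.

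The remaining heavy-chain rises were smaller. Cluster 10403046, listed as Ighg3 alone, read 6.46, 6.32, 6.32 and 6.53 in WT, 6.88, 7.01, 6.89 and 7.07 in Pax5+/-, and 7.39, 6.95, 7.15 and 7.36 in Cd72+/-;Pax5+/-. It was the only heavy-chain cluster that rose without a division between WT replicates 1 and 3 (mean 6.39) and replicates 2 and 4 (mean 6.425). It rose by 0.555 (SE 0.0932, adjusted p = 0.0021) and 0.805 (SE 0.0932, adjusted p = 0.000117). The pair fit ended the call in Pax5+/- (adjusted p = 0.0501). Cluster 10403021, which lists Igha and the pseudogene Ighv1-33, rose by 0.68 (adjusted p = 0.00352) and 0.605 (adjusted p = 0.00798), and neither passed in the pair fit (adjusted p = 0.235 and 0.289).

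A single heavy-chain cluster fell. Cluster 10402991 is listed as Ighm, the constant region of IgM, which is the heavy chain of the pre-B-cell receptor. It read 8.81, 8.38, 8.81 and 8.33 in WT, 7.22, 7.27, 7.42 and 7.33 in Pax5+/-, and 7.14, 7.19, 7.14 and 7.13 in Cd72+/-;Pax5+/-. All 8 mutant arrays lay below all WT arrays. It fell by 1.27 (SE 0.103, 2.42-fold, adjusted p = 4.5e-06) and by 1.43 (SE 0.103, 2.70-fold, adjusted p = 1.87e-06), and it passed in the pair fit as well (adjusted p = 0.0336 and 0.0238).

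The clusters listed as Ighm disagreed. Cluster 10402864 read 6.57 to 6.70 in WT, 6.67 to 6.89 in Pax5+/- and 6.74 to 6.82 in Cd72+/-;Pax5+/- (differences of 0.115 and 0.135, adjusted p = 0.282 and 0.172). Cluster 10403069 lay between 4.10 and 4.87 on all arrays, among the dimmest clusters. It differed by 0.11 and 0.23 from WT (adjusted p = 0.697 and 0.281). Of the accessions of 10402991 none was listed for the other Ighm clusters, which shared 1 with each other. The 3 clusters therefore give no common value for Ighm.

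**Figure D1:**
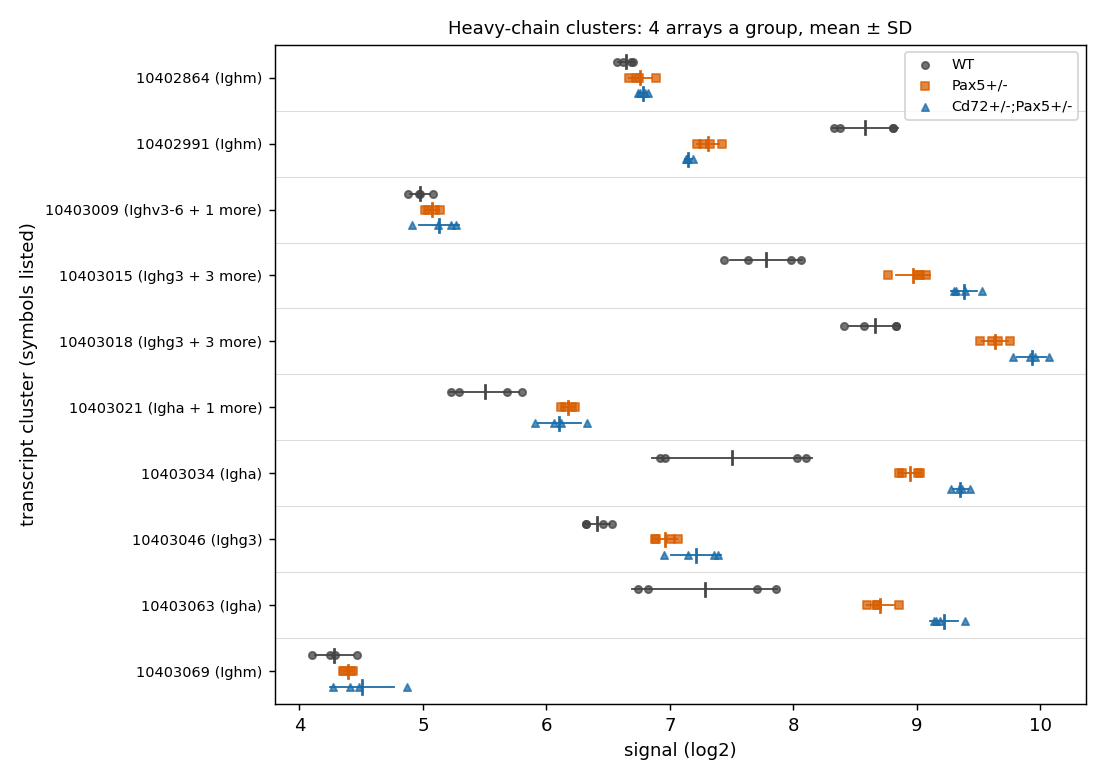
Signal of the 10 heavy-chain clusters on each array (log2, x axis), with 4 points a group, a vertical tick at the mean and a line of ± 1 SD. In the 6 clusters that rose, all mutant arrays lie to the right of the WT arrays, and in 10402991 all lie to the left. Of all clusters tested, 10.7% did not overlap between Pax5+/- and WT, and 14.8% between Cd72+/-;Pax5+/- and WT.

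Kappa clusters were raised in Pax5+/- and less so in Cd72+/-;Pax5+/-, a difference tested below. In Pax5+/- 9 of 17 rose, none fell (limma; 1 lower at an unadjusted p under 0.05) and 8 did not pass. The median log2 difference was 0.45. With loss of a Cd72 copy as well, 3 of 17 rose, none fell and 14 did not pass, with a median of 0.135. The median over the 17 kappa clusters was 5.50, 5.60, 5.64 and 5.54 in WT replicates 1 to 4, 6.33, 6.32, 6.47 and 6.56 in Pax5+/-, and 5.80, 5.83, 5.73 and 5.86 in Cd72+/-;Pax5+/-. These medians did not overlap between the groups, and WT replicates 1 and 3 were not set apart from replicates 2 and 4 as they were in the heavy-chain clusters.

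The largest kappa rise was that of cluster 10545184, which lists the constant region Igkc with the variable segments Igkv4-59, Igkv4-70 and Igkv4-80. It read 6.48, 6.41, 6.53 and 6.46 in WT, 7.70, 7.56, 7.73 and 7.96 in Pax5+/-, and 6.89, 6.73, 6.83 and 6.89 in Cd72+/-;Pax5+/-. The 3 groups did not overlap, and Cd72+/-;Pax5+/- lay nearer to WT. The difference from WT was 1.27 in Pax5+/- (SE 0.0743, 2.41-fold, adjusted p = 2.5e-07) and 0.365 in Cd72+/-;Pax5+/- (SE 0.0743, 1.29-fold, adjusted p = 0.00838). The call in Pax5+/- held in the pair fit (adjusted p = 0.00276) and that in Cd72+/-;Pax5+/- did not (adjusted p = 0.0814).

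Another 4 clusters list Igkv4-59 and Igkv4-80 among their symbols, and all 5 share accessions with each other, so they may read the same transcripts. Cluster 10545187 lists the symbols of 10545184 and read 5.29, 5.60, 5.64 and 5.48 in WT, 6.33, 6.46, 6.56 and 6.85 in Pax5+/-, and 5.80, 5.83, 5.73 and 5.86 in Cd72+/-;Pax5+/-. Cluster 10545198, with 8 symbols, read 6.41, 6.24, 6.10 and 6.04, then 7.03, 7.29, 7.41 and 7.25, then 6.49, 6.54, 6.43 and 6.56 in the same order of groups. In both, Pax5+/- stood clear of the other groups. Both differed by 1.05 between Pax5+/- and WT (SE 0.103 and 0.0892, adjusted p = 2.51e-05 and 7.02e-06). Clusters 10545196 and 10545194 rose by 0.64 and 0.605 (adjusted p = 0.00029 and 0.000166). These 4 clusters differed between Cd72+/-;Pax5+/- and WT by 0.135 to 0.31 and did not pass (adjusted p = 0.0563 to 0.435). All 5 passed in Pax5+/- in the pair fit as well.

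The segments Igkv19-93 and Igkv10-96 have clusters of their own. Cluster 10545177, listed as Igkv19-93, read 6.14, 6.07, 6.27 and 5.80 in WT, 7.32, 7.14, 7.21 and 7.15 in Pax5+/-, and 6.48, 6.42, 6.46 and 6.62 in Cd72+/-;Pax5+/-. The groups did not overlap. It rose by 1.135 (SE 0.0878, 2.20-fold, adjusted p = 3.01e-06) and by 0.425 (SE 0.0878, adjusted p = 0.00931), and the smaller rise was not called in the pair fit (adjusted p = 0.243). A further cluster listed as Igkv19-93, 10545182, read 7.54 to 7.94 in WT, 7.71 to 7.87 in Pax5+/- and 7.67 to 7.87 in Cd72+/-;Pax5+/-, with differences of 0.03 and -0.02 (adjusted p = 0.905 and 0.933). The clusters listed for this segment thus disagreed, although they share an accession.

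Cluster 10545173, listed as Igkv10-96, read 6.13, 5.44, 6.01 and 5.56 in WT, 6.67, 6.90, 6.47 and 6.86 in Pax5+/-, and 6.16, 5.99, 5.95 and 6.01 in Cd72+/-;Pax5+/-. Here WT was divided, with replicates 2 and 4 lower, and WT overlapped with Cd72+/-;Pax5+/-. It rose by 0.94 in Pax5+/- (SE 0.144, adjusted p = 0.00104, and 0.179 in the pair fit) and differed by 0.24 in Cd72+/-;Pax5+/- (adjusted p = 0.407). Without WT replicates 1 and 3 that difference was 0.53 (adjusted p = 0.00916), and without WT replicates 2 and 4 it turned to -0.04 (adjusted p = 0.893), so it rests on which WT arrays are used. Cluster 10545175, which adds the joining segment Igkj1 to Igkv10-96, read 7.26, 7.46, 7.50 and 7.17 in WT, 8.41, 7.97, 8.31 and 8.45 in Pax5+/-, and 7.96, 8.04, 7.98 and 8.16 in Cd72+/-;Pax5+/-. It was the kappa cluster with the largest rise in Cd72+/-;Pax5+/-, at 0.69 (SE 0.105, adjusted p = 0.00105), beside 0.94 in Pax5+/- (SE 0.105, adjusted p = 8.15e-05). The pair fit called both (adjusted p = 0.0271 and 0.0119).

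Igkv9-120 (cluster 10538882) was the least firm of the kappa rises. It read 6.10, 6.22, 6.33 and 5.98 in WT and 6.86, 6.32, 6.69 and 6.56 in Pax5+/-, so that the groups overlapped. It rose by 0.45 (SE 0.115, adjusted p = 0.0315), and the call ended under 12 of 21 other settings, among them without WT replicate 1, 2 or 4 or Pax5+/- replicate 1, 3 or 4.

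**Figure D2:**
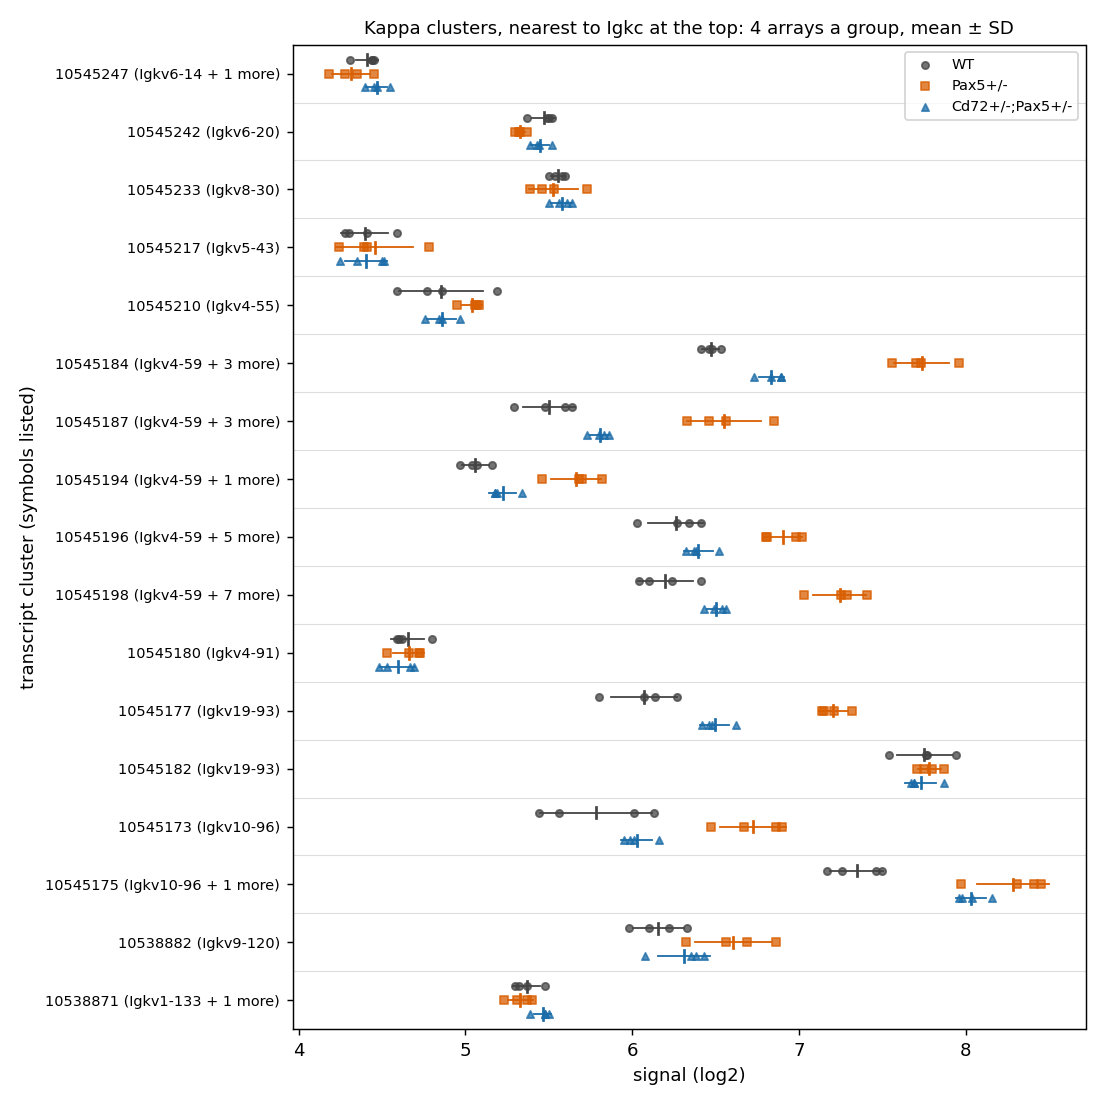
Signal of the 17 kappa clusters on each array (log2, x axis), ordered from the variable segment nearest to Igkc at the top, with 4 points a group, a tick at the mean and a line of ± 1 SD. Pax5+/- arrays stand to the right in the middle of the plot, and the groups coincide near the top, where the listed variable segments are nearest to Igkc.

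Most of the kappa clusters that rose list variable segments from the middle of the locus. The RefSeq table of GRCm38.p6 holds 168 kappa genes, and their order was counted from Igkc. Clusters were placed by their variable segments alone. Of those placed in the middle, 10545184, 10545187, 10545196 and 10545198 also list Igkc itself and 10545175 lists Igkj1, next to it at place 5, so where their probes lie is not known. All 5 clusters of Igkv4-59 and Igkv4-80, both of Igkv10-96 and a cluster of Igkv19-93 list variable segments between the places 73 and 120. Of the 10 clusters with all their variable segments in that stretch, 8 rose in Pax5+/-. The others there were Igkv4-91 (10545180, difference 0.01, adjusted p = 0.978) and the further cluster of Igkv19-93. Of the 7 clusters outside it 1 rose, Igkv9-120 at place 148. The stretch was chosen after the values were seen. All its clusters but Igkv4-91 share a symbol and a listed database transcript with another cluster there, so they are not independent. As 5 could also be placed at or near Igkc, the counts are only a description. Among the clusters that list variable segments only, 4 rose: 10545194, Igkv19-93 (10545177), Igkv10-96 (10545173) and Igkv9-120.

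The 5 clusters whose variable segments lie nearest to Igkc list Igkv6-14 and Igkv6-15, Igkv6-20, Igkv8-30, Igkv5-43 and Igkv4-55, at the places 20 to 63. Their differences in Pax5+/- ran from -0.14 to 0.19 and none passed (adjusted p = 0.107 to 0.897). Those in Cd72+/-;Pax5+/- ran from -0.025 to 0.06 (adjusted p = 0.708 to 0.989). The cluster of Igkv1-133 and Igkv1-135, the farthest from Igkc, differed by -0.04 and 0.095 (adjusted p = 0.8 and 0.382). All of these clusters are dim. Of the 29 segment clusters, 12 had a mean below 5.76, the 25th percentile of all clusters tested. In Pax5+/- 1 of those 12 passed, against 15 of the other 17. Among all clusters tested, dim or bright, 7.47% passed, and the share among all dim clusters was not counted. For a dim cluster these arrays may not show a difference that exists.

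**Figure D3:**
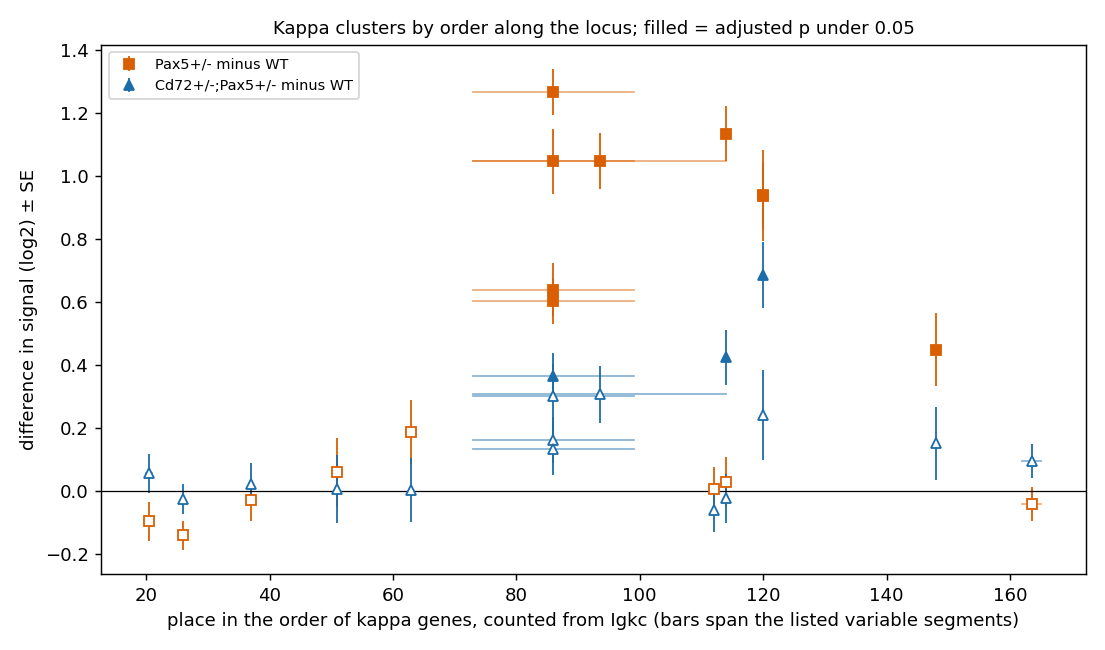
Difference of each mutant group from WT (log2, y axis, bars ± SE) for the 17 kappa clusters by place in the order of kappa genes counted from Igkc (x axis); horizontal lines span the listed variable segments alone, constant and joining segments left out, and filled symbols mark adjusted p under 0.05. In Pax5+/- the filled squares lie between the places 73 and 148, and the clusters at the places 20 to 63 lie between -0.14 and 0.19.

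Lambda clusters did not pass in any comparison (limma; at an unadjusted p under 0.05 none differed from WT and 1 was lower in Cd72+/-;Pax5+/- than in Pax5+/-). Clusters 10438405 and 10438415 both list Iglv1, Iglv2 and Iglc1. The first read 4.73 to 4.86 in WT, 4.61 to 4.88 in Pax5+/- and 4.74 to 4.84 in Cd72+/-;Pax5+/-, and the latter 5.29 to 5.36, 5.28 to 5.43 and 5.08 to 5.31. The differences from WT lay between -0.09 and 0.04 (adjusted p = 0.428 to 0.884), and both clusters lie below the 25th percentile.

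Both mutant groups were also compared with each other. They differ in sex, by Xist, as well as in the added loss of 1 copy of Cd72, which this comparison cannot tell apart. Of 29 clusters 7 were lower in Cd72+/-;Pax5+/- than in Pax5+/-, none was higher (limma; 7 higher at an unadjusted p under 0.05) and 22 did not pass, where 9.79% of all clusters passed, 4.44% higher and 5.35% lower. All 7 were kappa clusters. The difference was -0.90 for 10545184 (SE 0.0743, 1.87-fold, adjusted p = 4.81e-06), -0.745 for 10545187 (adjusted p = 0.000367) and -0.74 for 10545198 (adjusted p = 0.000122). These 3 passed in the pair fit too (adjusted p = 0.00596, 0.0265 and 0.0127). For Igkv19-93 (10545177) the difference was -0.71 (adjusted p = 0.000151) and for Igkv10-96 (10545173) it was -0.70 (adjusted p = 0.00758). The others were 10545196 and 10545194, at -0.505 and -0.44 (adjusted p = 0.00157 and 0.00164). The latter 4 did not pass in the pair fit (adjusted p = 0.0531 to 0.281).

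The heavy-chain clusters were not called in this comparison, though several leaned higher in Cd72+/-;Pax5+/-. The difference was 0.515 for 10403063 (SE 0.214, adjusted p = 0.174), 0.41 for 10403034 (SE 0.233, adjusted p = 0.345), 0.41 for 10403015 (SE 0.123, adjusted p = 0.0552) and 0.30 for 10403018 (SE 0.0973, adjusted p = 0.0787). In these 4 the mutant groups were apart on every array, as in 18.5% of all clusters. That separation alone fixes the two-sided exact permutation p at 0.0286, the least possible with 4 arrays a group. With only the 8 arrays of the compared groups in the fit, which leaves the wide spread of WT out of the error, all 4 passed (adjusted p = 0.000865 to 0.0221). In the pair fit none of these 4 passed. The cluster that fell, 10402991, differed by -0.16 (limma adjusted p = 0.416), and there too the mutant groups were apart, by 0.03. In all, 5 of the 10 heavy-chain clusters were apart between the mutant groups.

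**Figure D4:**
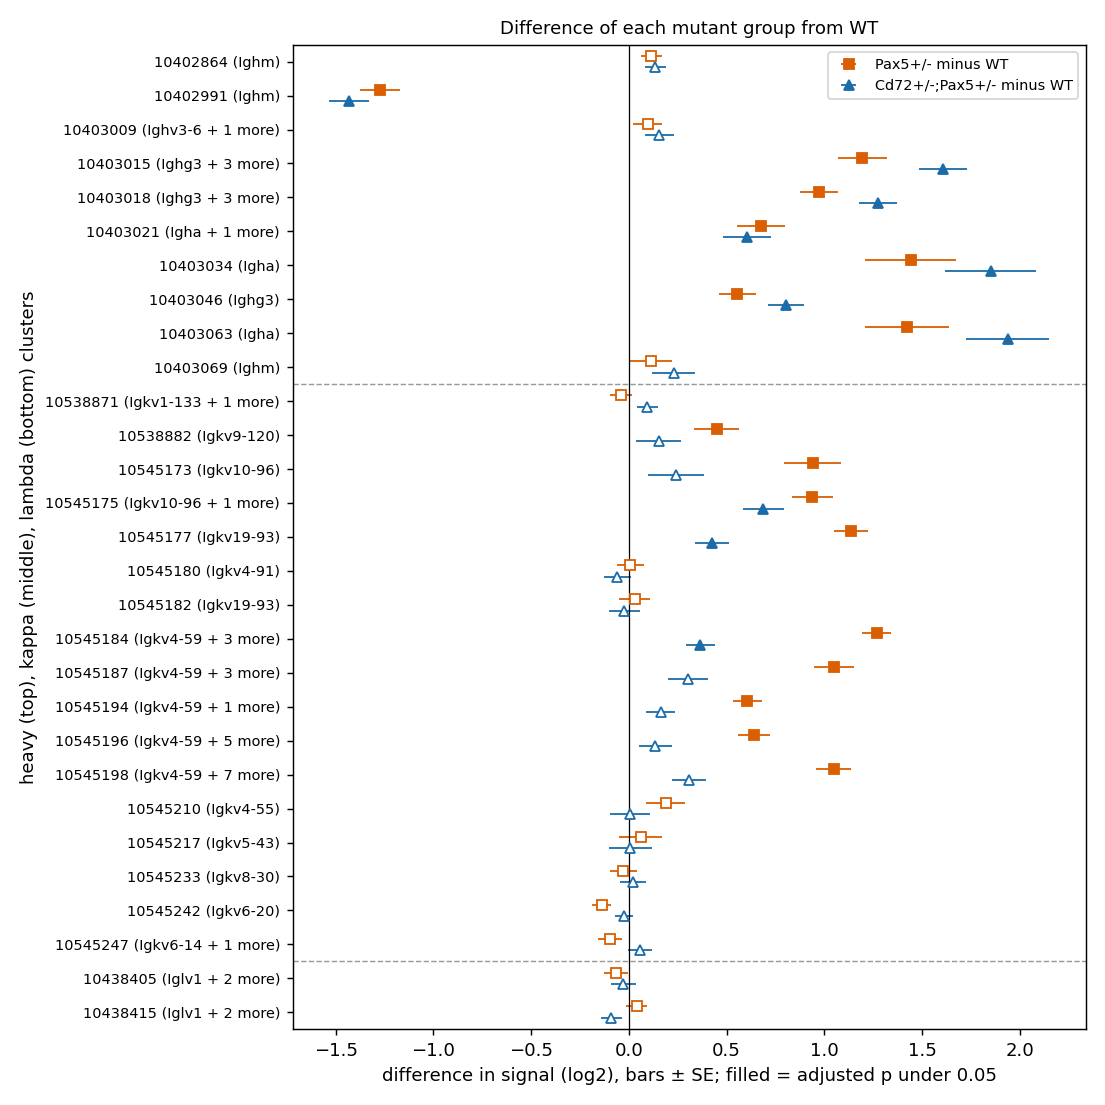
Difference in log2 signal from WT (x axis, bars ± SE) of Pax5+/- (squares) and Cd72+/-;Pax5+/- (triangles) for the 29 clusters, heavy above, kappa in the middle, lambda below; filled symbols mark adjusted p under 0.05. Of the 10 heavy-chain clusters 6 lie to the right and 1 to the left of 0 with filled symbols in both groups, and 3 have open symbols, while in the Igkv4 and Igkv19 clusters with a shift the squares lie to the right of the triangles.

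The counts depended on what is taken as a replicate. In the pair fit 10, 5 and 3 clusters passed in the order of the comparisons above, all among those called before, while 1.2%, 1.24% and 1.79% of all clusters did. By the study's own threshold, taken as an unadjusted p under 0.05 with a change over 2-fold, 8, 5 and 0 clusters passed, against 0.957%, 0.914% and 1.2% of all clusters. Without WT replicates 1 and 3, 17 and 12 clusters passed in the comparisons with WT, and without WT replicates 2 and 4, 15 and 11. Those 11 include Ighmbp2 (difference 0.23, limma adjusted p = 0.0338), which is no segment.

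Over the 12 arrays, the clusters most like 10403063 were 10403034, 10403015 and 10403018, with Pearson correlations of 0.996, 0.985 and 0.976. They share accessions or symbols and the difference between groups, so this describes these arrays only. For 10402991, the cluster that fell, the highest correlation with any other member was 0.39, with Igkv6-20, and it ran opposite to 10403046 and 10403018, with correlations of -0.91 and -0.90.

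In each comparison with WT, 0 or 1 gene passed on the lists of the recombination machinery and of the surrogate light chain, too small a number to set against the 7.47% and 7.78% of all clusters. Of 15 recombination genes measured, none passed in Pax5+/- (limma; 1 at an unadjusted p under 0.05). Dntt, the enzyme that adds nucleotides at the joints, was the only one that passed in Cd72+/-;Pax5+/-, with 8.29, 8.52, 8.40 and 8.85 against 11.93, 9.76, 11.92 and 9.82 in WT. It fell by 2.34 (SE 0.443, adjusted p = 0.00515, and 0.302 in the pair fit). Rag1 and Rag2, the recombinase, differed from WT by 0.08 and 0.45 in Pax5+/- (adjusted p = 0.921 and 0.52). Like the Igha clusters, Rag1 was higher in WT replicates 1 and 3, at 11.83 and 11.82 against 10.60 and 10.71. Of 11 genes of the surrogate light chain and pre-B-cell receptor, Cd79a, a signalling chain of the receptor, fell in Pax5+/- by 0.33 (adjusted p = 0.00538), and the kinase gene Blk fell in Cd72+/-;Pax5+/- by 0.755 (adjusted p = 0.04). Igll1 and Vpreb1, which encode the surrogate light chain, differed by 0.14 to 0.36 from WT in both groups and did not pass. Vpreb2 and Vpreb3 leaned higher as well, by 0.385 to 0.49, and did not pass (limma adjusted p = 0.0532 to 0.198). At an unadjusted p under 0.05, 5 of these 11 genes differed in Pax5+/- and 6 in Cd72+/-;Pax5+/-, in both directions.

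Factors that act on immunoglobulin loci moved both ways. Beside the counts of this list stand the 7.47% and 7.78% of all clusters that passed against WT in Pax5+/- and Cd72+/-;Pax5+/-. Of 26 measured, Irf4, Ikzf3, Ebf1 and Tcf12 rose and E2f2, Spib, Tcf3, Bcl11a and Pax5 fell in Pax5+/-. Irf4, which acts on the kappa enhancers, rose by 0.55 (SE 0.0815, adjusted p = 0.000803), and Spib, an Ets-family factor that can pair with Irf4 on DNA, fell by 1.27 (adjusted p = 0.000183). Against WT, Cd72+/-;Pax5+/- cells had higher Irf4, Ebf1 and Bcl11a and lower Ikzf3, Irf8 and Pou2af1. Ikzf3, which encodes Aiolos, stood at 7.77 to 7.89 in WT, 7.95 to 8.43 in Pax5+/- and 6.64 to 6.79 in Cd72+/-;Pax5+/-, and fell by 1.51 between the mutant groups (adjusted p = 1.46e-07).

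Markers of cells that carry joined light chains or secrete antibody were set beside the kappa rise. Their part in it was not tested. Of all clusters tested, 4.28% were higher and 3.2% lower in Pax5+/- than in WT, and 4.12% and 3.66% in Cd72+/-;Pax5+/-. Of 11 plasma cell markers, Ell2, Sdc1 and Irf4 rose and Xbp1, Mzb1 and Derl3 fell in Pax5+/-. Their mean read 7.66 to 7.71 in WT, 7.74 to 7.96 in Pax5+/- and 7.70 to 7.80 in Cd72+/-;Pax5+/-. Jchain, the joining chain of secreted IgM and IgA, read 5.52 to 6.10 in WT, 5.80 to 6.68 in Pax5+/- and 5.44 to 5.50 in Cd72+/-;Pax5+/-, and was lower in the last than in Pax5+/- (difference -0.77, adjusted p = 0.0129). Prdm1, which defines plasma cells, lay between 4.85 and 5.16 on all arrays. The list of immature and mature B cells held 14 genes, of which 1, Cd22, rose in Pax5+/- and 3, Ltb, Ccr7 and Cxcr5, fell, and their mean there, 6.78 to 6.92, was below that of WT, 6.96 to 7.10. Ms4a1, the gene of CD20, lay between 4.83 and 5.10 on all arrays, below the 25th percentile. Cd74, Cd22, H2-Aa and Ciita rose and Cxcr5 and Ltb fell in Cd72+/-;Pax5+/-. The mean of this list in Cd72+/-;Pax5+/-, 7.11 to 7.205, was above that of WT, unlike in Pax5+/-.

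Markers of dividing pre-B cells were lower in Pax5+/-, and their mean was lower in Cd72+/-;Pax5+/- too. Of all clusters tested, 4.28% were higher and 3.2% lower in Pax5+/- than in WT. In Cd72+/-;Pax5+/- 4.12% were higher and 3.66% lower, and these shares stand beside all counts of this paragraph. Of 9 genes of cycling large pre-B cells, Rrm2, Ccnd3, Top2a and Mcm4 fell, none rose and the other 5 had differences of -0.21 to -0.07, and their mean read 10.90 to 11.02 in WT and 10.58 to 10.77 in Pax5+/-. Mcm4 alone passed in Cd72+/-;Pax5+/-, where it fell by 0.20. The mean of the list there, 10.80 to 10.89, also lay just below every WT array. At an unadjusted p under 0.05 (limma) 6 of the 9 genes differed there, Aurkb among them being higher. Of 8 genes of small pre-B cells, Irf4 rose and Spib fell in Pax5+/-, and Irf4 rose and Il2ra and Irf8 fell in Cd72+/-;Pax5+/-. Il2ra, the gene of CD25, differed by 0.055 between Pax5+/- and WT (adjusted p = 0.788). Of 10 myeloid markers Itgam and Fcgr3 rose in Pax5+/- and Fcgr3 in Cd72+/-;Pax5+/-, and of 10 T cell markers Lat fell in Pax5+/-. Of 5 erythroid markers Aqp1 fell in Pax5+/- and rose in Cd72+/-;Pax5+/-, and of 11 stromal and endothelial markers Sparc and Cxcl12 fell in Cd72+/-;Pax5+/-. In the pair fit most of these calls ended: of 29 genes of all lists called in Pax5+/- against WT 4 passed (Ell2, Rrm2, Lat and Fcgr3), of 21 in Cd72+/-;Pax5+/- against WT 8 (Ikzf3, Cd22, Cd74, H2-Aa, Ciita, Ell2, Fcgr3 and Aqp1), and of 36 between the mutant groups 9, Ikzf3 among them and Jchain not (adjusted p = 0.00788 and 0.337).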

How the data were processed

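RNA of WT pro-B cells and mutant precursor B cells was hybridised to 12 arrays (Affymetrix Mouse Gene 1.0 ST). The authors analysed them with the Transcriptome Analysis Console 4.0.3, per the labels. The deposited table holds log2 signal per transcript cluster. The genome build is not given in the sources used here, nor the background correction or normalization, and coordinates were left out. Values ran from 3.67 to 14.73, with array medians of 6.91 to 7.005. Groups come from the source names. Symbols are those of a platform annotation of 2016.

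A mean per group was fitted to all 23410 clusters with a symbol, with no filter, in limma 3.58.1 and R 4.3.3 (9 residual and 3.28 prior degrees of freedom), and p-values were adjusted over all of them. Gene names, chromosomes and the order of genes were taken from RefSeq (GRCm38.p6). The pipeline was tested on simulated data. Figures used Python 3.11.15 and matplotlib 3.10.9.

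The members and lists were chosen with earlier results of these data known. Named were all clusters of constant, J and lambda genes, up to 8 of the largest rises and falls called without overlap, and in each list up to 4 called genes with the smallest adjusted p and up to 2 that did not pass; further names were chosen after their values were seen. Alternatives were quantile or median scaling, a filter on dim clusters, all clusters, other priors, array weights, other thresholds, fewer groups or replicates, averaged symbols, and the closest pairs of arrays averaged (the pair fit) or as a random block. Omission of WT replicates 1 and 3 or 2 and 4 was added after the arrays were seen.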

Additional observations from a re-analysis of the deposited data

Results flagged for a closer look

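In 6 of 87 sets of 4 arrays (29 clusters in 3 groups), an array stood apart from the other three by Dixon's criterion, which chance meets in about 1 set in 20. Cd72+/-;Pax5+/- replicate 2 did so in 3 clusters: it read 7.19 in 10402991 (Ighm) against 7.13 to 7.14 on the others of its group, 7.87 in 10545182 (Igkv19-93) against 7.67 to 7.69, and 5.34 in 10545194 (Igkv4-59 and Igkv4-80) against 5.18 to 5.19. WT replicate 3 read 4.80 in 10545180 (Igkv4-91) against 4.59 to 4.62, Pax5+/- replicate 1 read 4.95 in 10545210 (Igkv4-55) against 5.06 to 5.08, and WT replicate 2 read 4.31 in 10545247 (Igkv6-14 and Igkv6-15) against 4.44 to 4.45.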

How the results depend on the processing

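Clusters that passed numbered 16 (Pax5+/- minus WT), 10 (Cd72+/-;Pax5+/- minus WT) and 7 (Cd72+/-;Pax5+/- minus Pax5+/-). Counts were 10, 5 and 3 in the pair fit, which leaves fewer samples, and 8, 5 and 0 at an unadjusted p under 0.05 with a change over 2-fold, where the fold limit removes smaller changes. In the last comparison 11 passed with only the compared groups in the fit. Without each replicate in turn the counts were 15 to 17, 10 to 11 and 7 to 9. No called cluster turned its direction under the alternatives run. No paired analysis was possible because the groups share no replicate numbers in the labels. The dim clusters, 12 of 29, limit what can be detected.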
